A study of Mus musculus with 8 samples.

Results

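The genes described here are 9 that mark the progenitors and fibroblasts of fat: Pi16, Dpp4, Cd34, Pdgfra, Pdgfrb, Zfp423, Cd24a, Dpt and Thy1. They were chosen by name, as every probe set whose platform gene symbol is exactly one of these, which gave 18 probe sets of 45037 and 9 genes of 18193. Where a gene has several probe sets, the one with the highest mean stands for it. The knockout group was 4 arrays of gonadal adipose tissue from aP2-Pex5 -/- mice, and the control group was 4 arrays of the same tissue from wild type mice. The study describes the mice as Swiss in background, and all were aged 10 weeks and untreated. Pex5 is the receptor that carries enzymes into the peroxisome, and aP2 is the promoter of Fabp4, a fatty acid binding protein of adipocytes. By its promoter the deletion is aimed at adipocytes, and the genes described here mark mostly other cells of the tissue. Which cells lost Pex5 is not given in the labels and was not tested here. Sex is not given in the labels, and neither is the number of animals behind a group, so the p-values speak only for the spread among these 4 and 4 arrays, which may be technical. In RefSeq (GRCm38.p6), Cd34 lies on chromosome 1 at 194938821 to 194961292, and Dpt on the same chromosome at 164796663 to 164824274. Dpp4 lies on chromosome 2 at 62330073 to 62412315, Pdgfra on chromosome 5 at 75151322 to 75198206 and Zfp423 on chromosome 8 at 87661810 to 87962053. Thy1 lies on chromosome 9 at 44043384 to 44048579, Cd24a on chromosome 10 at 43579169 to 43584265, Pi16 on chromosome 17 at 29318796 to 29328903 and Pdgfrb on chromosome 18 at 61045127 to 61085067. Arrays carry the label numbers 6, 8, 9 and 10 in knockout and 1, 2, 3 and 4 in control.

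White fat holds, beside its lipid-filled adipocytes, a stroma of fibroblast-like cells that includes the precursors of adipocytes. In mice, cells positive for PI16 and DPP4 lie in the connective tissue around the fat lobules and behave as early progenitors. PDGFRA marks most adipose fibroblasts and progenitors, whereas PDGFRB marks mural cells of vessels as well as progenitors. CD34, CD24 and THY1 are surface antigens by which such cells are sorted, and all are also present on other cell types.

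The array values are RMA values on a log2 scale, so 1 unit is a doubling. Array medians ran from 6.44 to 6.52, and the correlation between any pair of arrays from 0.976 to 0.994. The Pex5 probe set 1426770_at read 9.50, 9.27, 9.38 and 9.30 in knockouts 6, 8, 9 and 10, against 9.52, 9.58, 9.34 and 9.06 in controls 1, 2, 3 and 4. The groups overlapped, and since the deleted exons are not named in the labels, this probe set does not check the genotype. Adipocyte markers were high in both groups, with Adipoq at 14.49 in knockout and 14.55 in control. The arrays fell into 2 sets by their lower quartile, knockouts 6 and 8 with controls 1 and 2, and knockouts 9 and 10 with controls 3 and 4. RNA quality, taken as the 3' minus 5' difference of the pyruvate carboxylase control probe sets, was 1.60 to 4.65 in knockout and 1.59 to 4.83 in control. It was uneven over the arrays, at 4.65 in knockout 9, 3.97 in control 1 and 4.83 in control 4, against 1.59 to 2.10 on the others. Control 4 stood apart with neutrophil markers (S100a8 and S100a9) averaging 11.10, against 6.85 to 8.09 in knockouts and 7.12 to 7.73 in the other controls. Knockout 6 stood apart with mesothelial markers at 7.17, against 8.27 to 9.21 in the other knockouts and 8.33 to 9.40 in controls.

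No difference between knockout and control was detected for any of the 9 genes. At a limma adjusted p under 0.05, 0 of the 9 genes passed, beside 0 of all 18193 genes (0%). At an unadjusted p under 0.05 the count was also 0 of 9, beside 466 of all genes (2.56%; 1.18% higher and 1.38% lower). The groups were without overlap in 0 of 9, beside 310 of all genes (1.70%; 0.682% higher and 1.02% lower). By mean, 6 of the 9 were higher and 3 lower in knockout, with a median difference of 0.03 against -0.01 over all genes. The 2 with the largest differences were Cd24a and Pi16, and they were also the 2 that varied most within groups. At the level of probe sets, 0 of 18 passed (0% of 45037), and at an unadjusted p under 0.05 the count was 0 of 18 beside 2.53% of all probe sets (1.18% higher and 1.35% lower). The groups were without overlap in 0 of 18, beside 1.60% (0.671% higher and 0.930% lower). All 9 genes lay above the limit used to leave out dim genes.

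**Figure D1:**
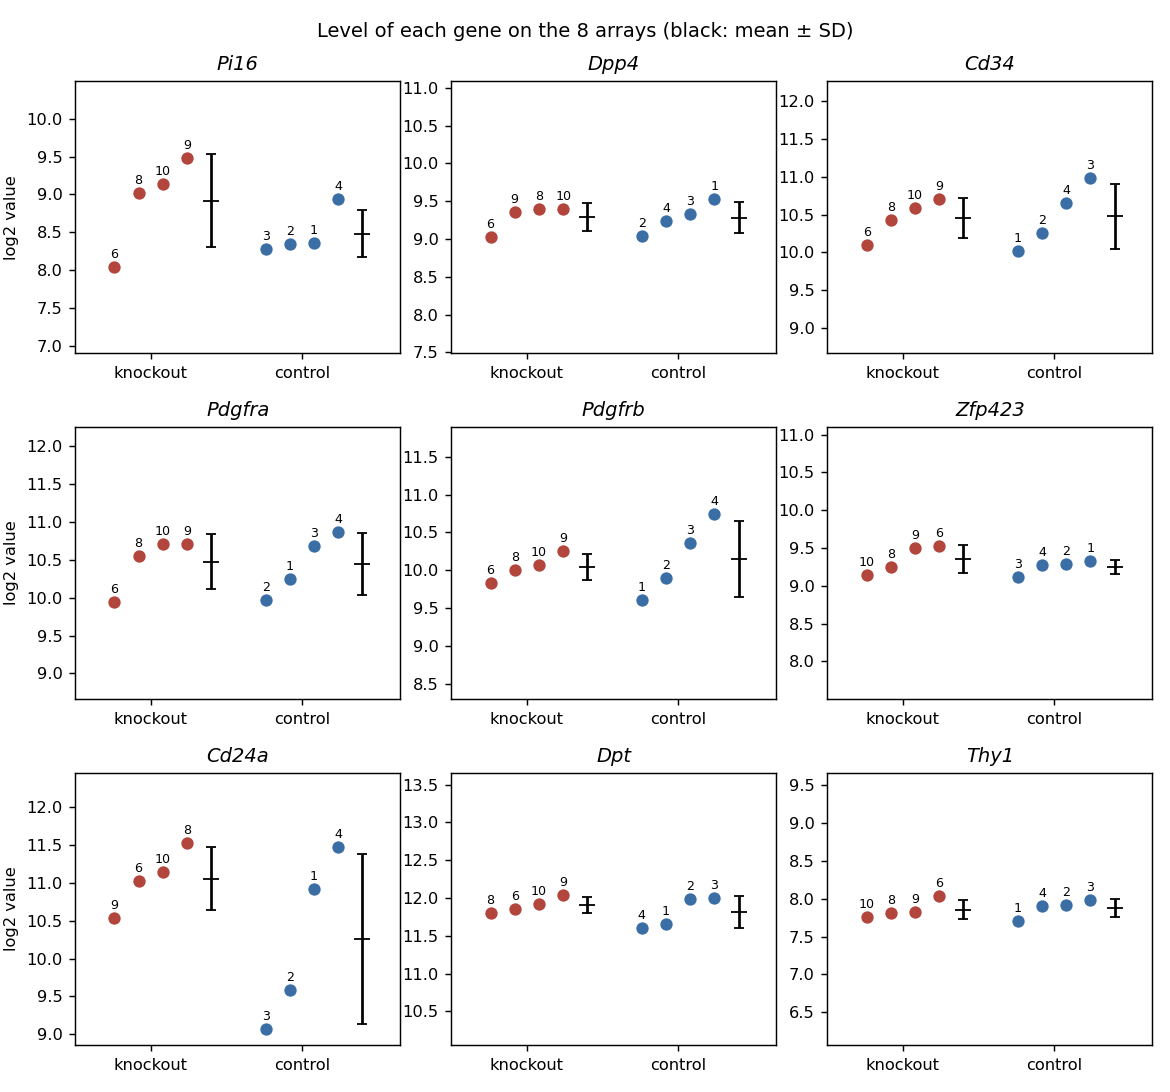
Log2 value of each of the 9 genes on the 4 knockout arrays (red, left) and the 4 control arrays (blue, right), each point marked with its array number, with the group mean and SD in black; every panel spans the same number of log2 units. The groups overlap in all 9 panels, and Cd24a has the widest spread, with controls 2 and 3 at 9.59 and 9.06.

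Pi16, a secreted peptidase inhibitor-like protein that marks the early progenitors, was higher in 3 of 4 knockout arrays than in every control, but not in the fourth. Probe set 1453839_a_at read 8.05, 9.02, 9.48 and 9.13 in knockouts 6, 8, 9 and 10, against 8.36, 8.34, 8.28 and 8.94 in controls 1, 2, 3 and 4. Knockout 6 was the lowest of the 8 arrays, and control 4 was set apart from the other controls. The mean was 8.92 ± 0.61 in knockout and 8.48 ± 0.31 in control (SD, n = 4 each). The difference was 0.44 (95% interval -0.24 to 1.12; limma with Benjamini-Hochberg, adjusted p = 0.999). As a ratio this is 1.35 (interval 0.847 to 2.17), so a doubling lies within the interval. The difference was 0.73 without knockout 6 and 0.25 without knockout 9, with no call in either fit (adjusted p = 0.999 and 0.986). The dimmer probe set 1422026_at ranged from 5.04 to 5.51 in knockout and from 4.83 to 5.20 in control, and it differed by 0.19 (interval -0.09 to 0.47). The 2 probe sets followed each other over the 8 arrays (Pearson r = 0.809, exact permutation p = 0.00771; Spearman rho = 0.881, p = 0.00724). Without knockouts 6 and 9, r was 0.660 over 6 arrays (exact permutation p = 0.0764).

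Dpp4, the membrane dipeptidyl peptidase found on the same progenitors, did not differ between the groups by more than its spread. Probe set 1416697_at read 9.02, 9.39, 9.35 and 9.40 in knockouts 6, 8, 9 and 10, against 9.52, 9.04, 9.33 and 9.23 in controls 1, 2, 3 and 4. Both groups had 1 low array, knockout 6 and control 2. The mean was 9.29 ± 0.18 in knockout and 9.28 ± 0.20 in control (SD, n = 4 each), and the difference of 0.01 had a 95% interval of -0.28 to 0.30. The ratio was 1.01, and its interval, 0.823 to 1.23, bounds the size of change these arrays allow. The other 3 probe sets differed by -0.01 (1459973_x_at), 0.14 (1438279_at) and 0.13 (1441342_at), each with an interval across 0. A probe set whose name ends in _x_at can bind related transcripts. The 6 pairs of Dpp4 probe sets had r between 0.629 and 0.886 over the 8 arrays, both low arrays included. Without knockout 6 and control 2, the r of 1459973_x_at was 0.345 with 1416697_at, 0.012 with 1438279_at and 0.249 with 1441342_at, so its agreement with the other probe sets rests on those arrays. The r of 1416697_at also fell without them, from 0.886 to 0.701 with 1438279_at and from 0.674 to 0.423 with 1441342_at.

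The proximal promoters of Pi16 and Dpp4 are given because these 2 genes define the early progenitor state. They are the 250 bases before and 50 after the start used for each window (GRCm38.p6), written 5' to 3' along the gene. They lie at chr17:29318632-29318931 on the plus strand for Pi16 and chr2:62412182-62412481 on the minus strand for Dpp4. For neither gene is that start the RefSeq gene start, 29318796 for Pi16 and 62412315 for Dpp4, although each RefSeq start lies within its window. Capitals mark a match on either strand to the TATA box (TATAAA), the CCAAT box (CCAAT) or the GC box (GGGCGG), which do not overlap here.
Pi16: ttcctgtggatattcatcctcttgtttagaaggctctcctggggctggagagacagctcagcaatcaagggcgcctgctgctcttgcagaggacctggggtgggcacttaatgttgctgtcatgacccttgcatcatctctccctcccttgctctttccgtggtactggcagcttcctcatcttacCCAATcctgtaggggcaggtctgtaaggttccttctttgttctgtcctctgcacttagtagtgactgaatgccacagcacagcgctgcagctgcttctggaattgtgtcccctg
Dpp4: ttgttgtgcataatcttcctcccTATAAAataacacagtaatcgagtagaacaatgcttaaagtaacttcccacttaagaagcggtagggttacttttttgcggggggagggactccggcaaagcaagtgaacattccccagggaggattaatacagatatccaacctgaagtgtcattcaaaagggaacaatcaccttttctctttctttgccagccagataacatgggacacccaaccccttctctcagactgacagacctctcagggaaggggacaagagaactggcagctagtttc
Counted from the start used for its window, Pi16 held 1 CCAAT match with its first base at -64, and Dpp4 held 1 TATAAA match at -227. Against the RefSeq gene starts, the Pi16 match lies past the start, inside the gene, and the Dpp4 match lies before it. Of 32851 such windows in the table, 37.4% held CCAAT, 13.6% TATAAA and 35.7% GGGCGG, and a match is only a run of letters, not a shown site. Of the 9 genes, 6 had a window in the table; Pdgfrb, Cd24a and Thy1 had none.

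Other genes of the PI16- and DPP4-positive state leaned higher in knockout by mean, but the groups overlapped and none passed. Of 9 measured genes 8 were higher and 1 lower, beside 8499 higher and 9694 lower of all 18193 genes. The list had 0 at an adjusted limma p under 0.05, 0 at an unadjusted p under 0.05 and a median of 0.11 against -0.01 over all genes. That median was 0.039 without control 4 and 0.22 without control 3. By array the list averaged 8.17 to 8.44 in knockout and 7.91 to 8.63 in control, and control 3 was the highest of all arrays. Bmp7, a bone morphogenetic protein, averaged 7.15 in knockout and 6.86 in control (difference 0.29, interval -0.06 to 0.65). Sema3c, a secreted semaphorin, differed by 0.18 (-0.18 to 0.53) and Dact2, a modulator of Wnt and TGF-beta signalling, by 0.11 (-0.12 to 0.33). Knockout 6, lowest of all arrays in Pi16, was the highest in Sema3c at 11.33, against 10.92 to 11.15 in the other knockouts and 10.53 to 11.22 in controls. Pcolce2, an enhancer of procollagen processing picked out after its values were seen, was likewise highest in knockout 6, at 10.73, against 9.41 to 10.06 in the other knockouts and 8.66 to 10.61 in controls.

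Pdgfra, the receptor for PDGF-A and PDGF-C that marks adipose fibroblasts, did not differ between the groups by more than its spread. Probe set 1421917_at read 9.94, 10.55, 10.71 and 10.71 in knockouts 6, 8, 9 and 10, against 10.25, 9.97, 10.69 and 10.87 in controls 1, 2, 3 and 4. Knockout 6 and control 2 were low by similar amounts. The mean was 10.48 ± 0.37 in knockout and 10.44 ± 0.41 in control (SD, n = 4 each), and the difference was 0.03 (95% interval -0.51 to 0.58). The other probe sets, 1421916_at and 1438946_at, differed by -0.09 and 0.03, and their r with 1421917_at over the 8 arrays was 0.841 and 0.954 (exact permutation p = 0.00861 and 0.00156; adjusted over 14 probe set pairs, 0.0132 and 0.00438). Without knockout 6 and control 2 these r were 0.615 and 0.916 (exact permutation p = 0.188 and 0.0292).

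Pdgfrb, the receptor for PDGF-B, had a wider range in control than in knockout. Probe set 1436970_a_at read 9.83, 10.00, 10.26 and 10.07 in knockouts 6, 8, 9 and 10, against 9.61, 9.90, 10.35 and 10.74 in controls 1, 2, 3 and 4. The knockout arrays all lay inside the control range. The mean was 10.04 ± 0.18 in knockout and 10.15 ± 0.50 in control (SD, n = 4 each), and the difference was -0.11 (-0.64 to 0.42). Its sign depended on control 4, without which the difference was 0.09. Probe set 1417148_at gave -0.09 (interval -0.40 to 0.21), and its r with 1436970_a_at was 0.936 (exact permutation p = 0.000868).

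Cd34, a sialomucin of progenitors and endothelium, did not differ beyond its spread either. Its probe set 1416072_at read 10.10, 10.42, 10.70 and 10.59 in knockouts 6, 8, 9 and 10, against 10.01, 10.26, 10.98 and 10.65 in controls 1, 2, 3 and 4. The mean was 10.45 ± 0.26 in knockout and 10.48 ± 0.43 in control (SD, n = 4 each), and the difference was -0.02 (-0.52 to 0.48). Control 1 was the lowest array and control 3 the highest, so the control group spanned the knockout group.

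Cd34, Pdgfra and Pdgfrb varied alike over the arrays, and their shared pattern followed the 2 array sets. Cd34 read 10.59 to 10.98 on knockouts 9 and 10 and controls 3 and 4, and 10.01 to 10.42 on the other 4 arrays. On the same sets of arrays Pdgfra read 10.69 to 10.87 and 9.94 to 10.55, and Pdgfrb 10.07 to 10.74 and 9.61 to 10.00. All 3 genes thus split by set without overlap. The share of all genes that split in this way was not counted, so the split is not shown to be particular to these 3. The permutation p-values treat the 8 arrays as exchangeable. Of 36 pairs among the 9 genes, 20 had r above 0, with a median of 0.141, and the pairs of these 3 genes were among the 4 with an unadjusted exact permutation p under 0.05 for r. For Cd34 and Pdgfra r was 0.807 (exact permutation p = 0.0189; rho 0.762, p = 0.0368), and r was 0.947 without controls 1 and 3. For Cd34 and Pdgfrb r was 0.807 (exact permutation p = 0.0143; rho 0.929, p = 0.00223), and r was 0.759 without controls 1 and 3 (exact permutation p = 0.0611). For Pdgfra and Pdgfrb r was 0.776 (exact permutation p = 0.0200; rho 0.857, p = 0.0107), and r was 0.929 without knockout 6 and control 2. After adjustment over the 36 pairs no r passed (adjusted exact permutation p = 0.180 for each), while rho of Cd34 with Pdgfrb did (adjusted p = 0.0402). With group means taken out, r for the 3 pairs was 0.810, 0.813 and 0.797. The 2 array sets hold 4 arrays each, too few for r within a set. The arrays also shared their normalization, and all 3 genes were below their means on knockout 6 and controls 1 and 2 and above them on controls 3 and 4. In bulk tissue, fewer cells of a type and less RNA per cell cannot be told apart.

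The windows of Cd34 (chr1:194938571-194938870, plus strand) and Pdgfra (chr5:75152001-75152300, plus strand) are given because these 2 genes varied together and have entries in the table. They are laid out as for Pi16, and neither held any of the 3 motifs, so no base is in capitals. The Cd34 window is built on the RefSeq gene start, whereas the Pdgfra window lies inside the RefSeq gene, past its start at 75151322.
Cd34: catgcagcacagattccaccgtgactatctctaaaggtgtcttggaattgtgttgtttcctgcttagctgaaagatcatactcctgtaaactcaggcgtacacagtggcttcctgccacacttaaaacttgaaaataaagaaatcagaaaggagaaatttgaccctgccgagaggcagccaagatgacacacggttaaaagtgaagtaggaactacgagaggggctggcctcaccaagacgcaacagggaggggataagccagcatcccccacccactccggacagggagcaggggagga
Pdgfra: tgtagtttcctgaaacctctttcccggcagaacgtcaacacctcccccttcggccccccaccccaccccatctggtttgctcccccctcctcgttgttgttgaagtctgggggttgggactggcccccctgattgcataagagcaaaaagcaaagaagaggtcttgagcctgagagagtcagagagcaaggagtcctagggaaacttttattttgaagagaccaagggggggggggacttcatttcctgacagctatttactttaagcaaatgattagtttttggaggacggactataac
Their G and C content was 50% and 51%. The absence of these letters in 300 bases says nothing about which factors act on the genes.

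Pdgfrb moved with the mural markers. The 7 mural markers (Rgs5, Cspg4, Kcnj8, Abcc9, Notch3, Acta2 and Myh11) averaged 9.76 to 9.91 in knockout and 9.58 to 10.11 in control, with 2 of 7 higher and 5 lower in knockout by mean. Their score, the mean deviation from each gene's average, was -0.06, -0.02, 0.09 and -0.00 in knockouts 6, 8, 9 and 10, against -0.24, -0.18, 0.13 and 0.29 in controls 1, 2, 3 and 4. Pdgfrb followed it closely (r = 0.969, exact permutation p = 0.000174; rho = 0.976, p = 0.000397), and r was 0.898 without controls 1 and 4 (exact permutation p = 0.0167). Of 99 relations between the 9 genes and 11 marker lists, 3 passed for r after adjustment, and this was one (adjusted p = 0.0110). Another was Pdgfrb with the red blood cell markers, at r = 0.966 (rho = 0.952, adjusted exact permutation p of r = 0.0110). The 3 red blood cell genes measured averaged 5.66 to 6.75 in knockout and 5.63 to 7.52 in control. Their score was highest in control 4 at 1.26. Both scores split by array set without overlap, as Pdgfrb did. On knockouts 9 and 10 and controls 3 and 4 the mural score was -0.00 to 0.29, against -0.24 to -0.02 on the other arrays. For red blood cells it was -0.06 to 1.26 against -0.62 to -0.24. The permutation p-values treat the 8 arrays as exchangeable, so these 2 relations were not separated from the array sets. Endothelial markers averaged 9.66 to 9.92 in knockout and 9.45 to 10.18 in control, and their r with Cd34 was 0.783 (exact permutation p = 0.0230; adjusted p = 0.190; rho = 0.714). Without controls 1 and 3 that r was 0.439, so the relation rests on those arrays. Lists of other cells gave r of similar size. The r of T cell markers was 0.761 with Cd34, 0.856 with Pdgfra and 0.746 with Pdgfrb, and that of macrophage markers was 0.828, 0.747 and 0.593 (adjusted exact permutation p at least 0.152 for all 6). The 4 T cell genes measured were dim, averaging 5.60 to 6.39 in knockout and 5.47 to 6.23 in control, below every array median. For mural markers r was 0.795 with Cd34 and 0.788 with Pdgfra (adjusted exact permutation p = 0.181 each), and for endothelial markers it was 0.531 with Pdgfra and 0.834 with Pdgfrb (adjusted p = 0.472 and 0.152). The part of any of these cells in the values of Cd34, Pdgfra and Pdgfrb was not tested.

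**Figure D2:**
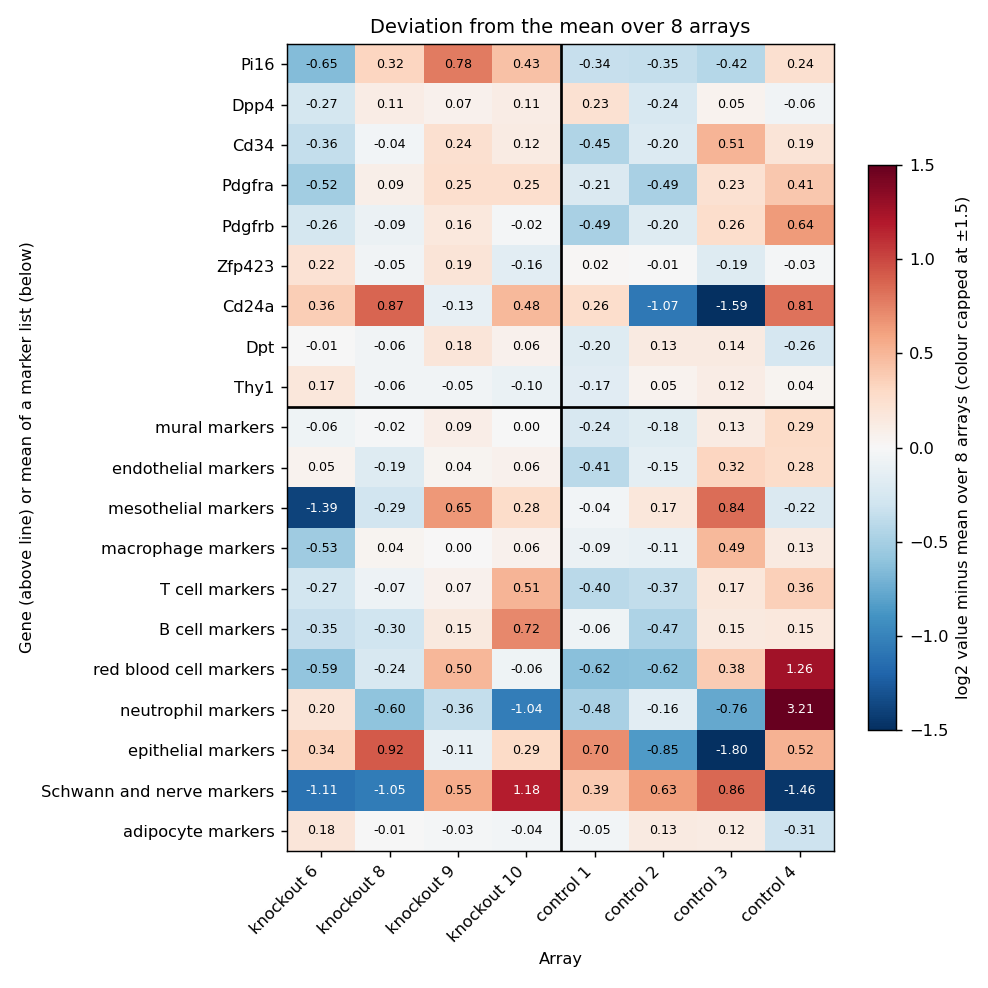
Log2 deviation from the mean over the 8 arrays, for each of the 9 genes (above the line) and for the mean of each of 11 marker lists (below), with knockout arrays left of control arrays; the number in each cell is the deviation. Pi16, Cd34, Pdgfra and Pdgfrb are all low in knockout 6, and the Cd24a and epithelial rows are both lowest in control 3.

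The ligands and effectors of the PDGF receptors had small mean differences, and none passed. Of 4 ligands, 3 were higher and 1 lower, with a median of 0.04 (-0.023 without control 1 and 0.11 without control 3). Pdgfa, a ligand of PDGFRA, read 8.30 to 8.58 in knockout and 8.15 to 8.31 in control (difference 0.15, interval -0.04 to 0.34), while Pdgfc differed by 0.04 and Pdgfb by 0.03. Of 9 genes of proteins that dock on the activated receptors, 5 were higher and 4 lower, with a median of 0.00. Ptpn11, the phosphatase SHP2, read 11.59 to 11.70 in knockout and 11.50 to 11.53 in control, without overlap. It was the 1 effector of 9 at an unadjusted p under 0.05, beside 1.18% of all genes higher in this way and 0.682% higher without overlap. Its difference was 0.14 (interval 0.01 to 0.27), with an adjusted limma p of 0.999. Grb2, an adaptor, differed by -0.18 (interval -0.62 to 0.26) and Rasa1, a Ras GTPase-activating protein, by -0.05 (-0.19 to 0.08).

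Zfp423, a zinc finger factor that commits fibroblasts to the adipocyte lineage, had an SD within groups of 0.15, larger than that of 45.1% of all genes. Its probe set 1419380_at read 9.52, 9.25, 9.49 and 9.14 in knockouts 6, 8, 9 and 10, against 9.32, 9.30, 9.12 and 9.27 in controls 1, 2, 3 and 4. The mean was 9.35 ± 0.19 in knockout and 9.25 ± 0.09 in control (SD, n = 4 each), and the difference was 0.10 (-0.13 to 0.34). The ratio was 1.07, with an interval of 0.911 to 1.26. Knockout 6, the lowest array for Pi16, Pdgfra and Dpp4, was the highest for Zfp423.

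Of 19 measured genes that regulate commitment around Zfp423, 13 were higher and 6 lower, with 0 at an unadjusted p under 0.05 and a median of 0.05 (0.024 without knockout 9 and 0.088 without control 4). Tle3, a co-regulator of PPARG in adipocytes, averaged 10.11 in knockout and 9.82 in control (difference 0.29, interval -0.04 to 0.62). Bmp4, which drives precursors toward the adipocyte lineage, differed by 0.24 (-0.16 to 0.63), and Gata3, a factor that restrains this step, by -0.29 (-0.82 to 0.24). Gata3 was dim, at 3.97 to 4.41 in knockout and 3.92 to 5.01 in control, with both group means below the lower quartile of every array. Of 5 genes of more committed preadipocytes 1 was higher and 4 lower, with a median of -0.08 (-0.14 without knockout 9 and -0.016 without knockout 10). Dlk1, an inhibitor of adipocyte differentiation, was the 1 of these 5 at an unadjusted p under 0.05 and without overlap, reading 5.23 to 5.63 in knockout and 5.91 to 6.04 in control with an adjusted limma p of 0.999. Over all genes, 1.38% were lower at that p and 1.02% lower without overlap. Dlk1 was dim too, with all its values below every array median (6.44 to 6.52). Cxcl14, a chemokine, differed by 0.27 (-0.15 to 0.69) and Ggt5, a gamma-glutamyltransferase, by -0.08 (-0.28 to 0.12).

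Cd24a, a small GPI-anchored glycoprotein that marks the least differentiated adipose progenitors and also many epithelial and blood cells, varied most of the 9 genes. Probe set 1448182_a_at read 11.02, 11.53, 10.53 and 11.14 in knockouts 6, 8, 9 and 10, against 10.92, 9.59, 9.06 and 11.47 in controls 1, 2, 3 and 4. Controls 2 and 3 lay below every other array, and controls 1 and 4 lay within the knockout range. The mean was 11.06 ± 0.41 in knockout and 10.26 ± 1.12 in control (SD, n = 4 each). The difference was 0.80 (95% interval -0.37 to 1.96; limma with Benjamini-Hochberg, adjusted p = 0.999). As a ratio this is 1.74, with an interval of 0.774 to 3.90. The difference was 0.40 without control 3 and 1.20 without control 4, neither past the threshold (smallest adjusted limma p 0.552). Its SD within groups, 0.85, was larger than that of 97.8% of all genes. Probe sets 1416034_at and 1437502_x_at gave differences of 0.70 and 0.58, and r with 1448182_a_at of 0.991 and 0.970 (exact permutation p = 4.96e-05 and 9.92e-05).

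Cd24a moved with the epithelial markers Epcam, Cdh1, Krt8, Krt18 and Cldn4. These averaged 8.89, 9.47, 8.44 and 8.84 in knockouts 6, 8, 9 and 10, against 9.25, 7.70, 6.75 and 9.07 in controls 1, 2, 3 and 4. Controls 2 and 3, lowest in Cd24a, were lowest here as well, and all 5 markers were higher in knockout by mean, by 0.23 to 1.27, with 0 past the test. Epcam, an epithelial adhesion protein, read 7.35 in control 3 and 8.68 in control 2, against 9.64 to 10.73 in knockouts and 10.51 to 10.69 in the other controls. Over the 8 arrays r was 0.964 (exact permutation p = 0.000620; adjusted over 99 relations, 0.0205; rho = 0.833, p = 0.0154, adjusted 0.127). Controls 2 and 3 are set apart on both measures, and over the other 6 arrays r was 0.758 (exact permutation p = 0.0750). The part of epithelial cells in the Cd24a value was not tested.

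**Figure D3:**
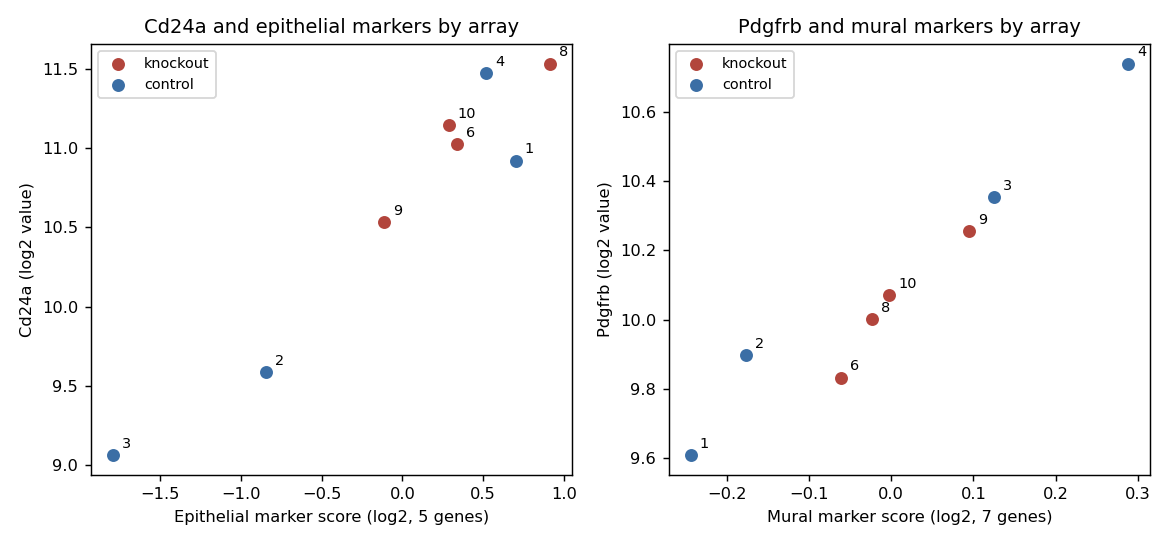
Left, log2 value of Cd24a against the score of 5 epithelial markers, and right, log2 value of Pdgfrb against the score of 7 mural markers, 1 point an array (red, knockout; blue, control) marked with its number. In the left panel controls 2 and 3 lie apart from the other 6 arrays, and in the right panel the knockout arrays lie between controls 1 and 4.

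Dpt, dermatopontin, an extracellular matrix protein of fibroblasts, had an SD within groups of 0.17, larger than that of 54.3% of all genes. Its probe set 1418511_at read 11.85, 11.80, 12.04 and 11.92 in knockouts 6, 8, 9 and 10, against 11.66, 11.99, 12.00 and 11.60 in controls 1, 2, 3 and 4. The mean was 11.90 ± 0.10 in knockout and 11.81 ± 0.21 in control (SD, n = 4 each), and the difference was 0.09 (-0.17 to 0.35). Dpt ran against Cd24a over the 8 arrays, with r = -0.659 (exact permutation p = 0.0722, adjusted over 36 pairs 0.433; rho = -0.714, p = 0.0576) and r = -0.608 without controls 2 and 3. With group means taken out the same r was -0.965, given as a description. Thy1, a GPI-anchored protein of fibroblasts, T cells and neurons, varied less, with an SD within groups larger than that of 31.2% of all genes. It read 8.04, 7.81, 7.82 and 7.76 in knockouts 6, 8, 9 and 10, against 7.70, 7.91, 7.98 and 7.91 in controls 1, 2, 3 and 4. Its difference was -0.02, with an interval of -0.23 to 0.19 and a ratio of 0.986 (0.853 to 1.14). Dpp4 and Thy1 ran opposite to each other over the 8 arrays, with r = -0.805 (exact permutation p = 0.0162, adjusted over 36 pairs 0.180) and rho = -0.929 (p = 0.00223, adjusted 0.0402). Without knockout 6 and control 2, r was -0.795 with an exact permutation p of 0.0542.

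**Figure D4:**
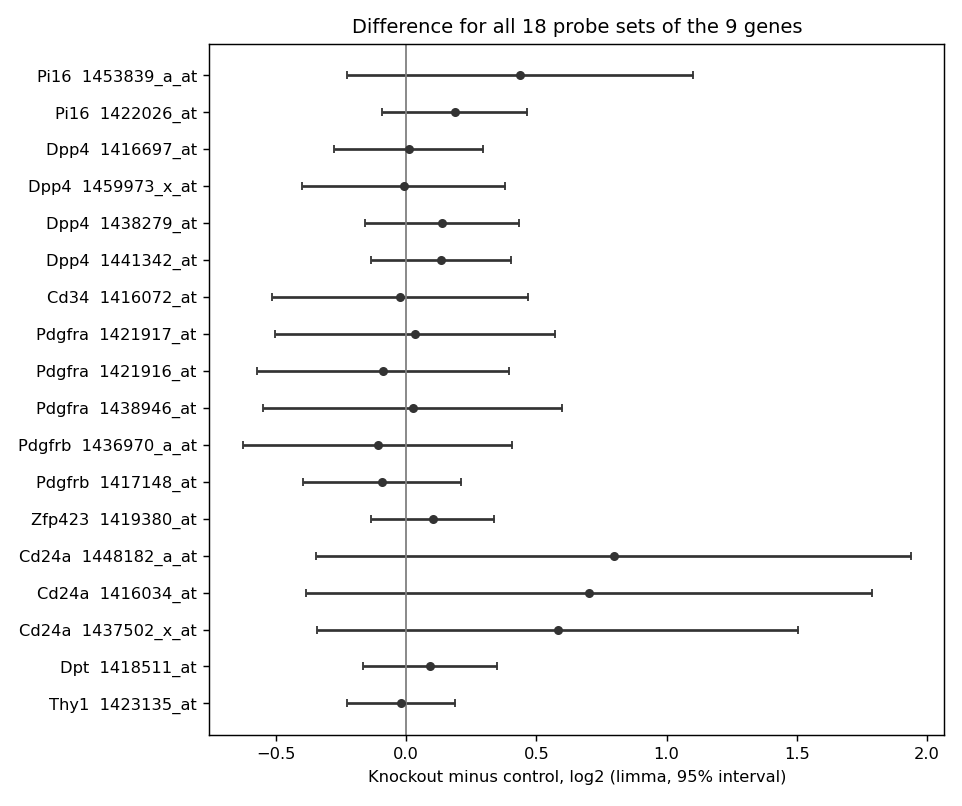
Difference between knockout and control on the log2 scale, with its 95% limma interval, for all 18 probe sets of the 9 genes. Every interval crosses 0, and the 3 Cd24a probe sets have the widest, centred between 0.58 and 0.80.

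The wider fibroblast lists held no call either. Of 14 general fibroblast genes, 5 were higher and 9 lower, with 0 at an unadjusted p under 0.05 and a median of -0.06. The sign of that median turned with 1 array, at -0.20 without control 1 and 0.032 without knockout 6. S100a4, a calcium-binding protein, differed by -0.22 (interval -0.62 to 0.19), Pdpn, a mucin-like glycoprotein, by -0.23 (-0.74 to 0.28) and Fn1, fibronectin, by -0.30 (-0.98 to 0.38). Of 7 genes of the F3-positive stromal cells that restrain adipogenesis in mice, 1 was higher and 6 lower, with a median of -0.10 (-0.17 without control 1 and 0.0066 without control 3). Clec11a, a secreted growth factor, read 6.97 to 7.18 in knockout and 7.21 to 7.53 in control, a difference of -0.25 (-0.46 to -0.05). Abcg1, a sterol transporter, read 9.26 to 9.38 in knockout and 9.41 to 9.79 in control, a difference of -0.18 (-0.40 to 0.04), and Fmo2, a flavin monooxygenase, differed by -0.10. Clec11a and Abcg1 were without overlap between the groups, 2 of 7 genes beside 1.02% of all genes that were lower in this way. Neither passed after limma adjustment over all genes.

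Among genes of proteins related to DPP4 or cut by it, 2 of 7 were higher and 5 lower, and 0 had an unadjusted p under 0.05. Their median was -0.04 (-0.13 without control 4 and -0.011 without knockout 8). Npy, neuropeptide Y, read 6.01 to 6.33 in knockout, against 9.54 in control 1 and 6.08 to 6.23 in the other controls. Cxcl12, a chemokine, differed by 0.22 (-0.26 to 0.70) and the peptidase Dpp9 by -0.09 (-0.29 to 0.11). Of 6 genes of proteins that bind THY1, CD24 or CD34, 2 were higher and 4 lower, with a median of -0.32 against -0.01 over all genes. Itgb2, the leukocyte integrin beta chain, read 9.23 to 9.89 in knockout and 9.79 to 10.20 in control (difference -0.46, interval -0.81 to -0.12). Selp, P-selectin, differed by -0.63 (-1.23 to -0.02), and Itgam, the integrin alpha chain of macrophages and neutrophils, by -0.73 (-1.47 to 0.00). Itgb2 and Selp were the 2 of 6 at an unadjusted limma p under 0.05, beside 1.38% of all genes that were lower in this way, and neither passed after adjustment over all genes. All 5 macrophage markers were also lower in knockout by mean, with differences from -0.44 to -0.01, beside 9694 of 18193 genes lower. Of the 5, 2 had an unadjusted limma p under 0.05 and 0 passed after adjustment. Their level was 9.82 to 10.41 in knockout, lowest in knockout 6, and 10.24 to 10.83 in control, highest in control 3. Knockouts 8, 9 and 10 read 10.35 to 10.41, above controls 1 and 2 (10.26 and 10.24) and below controls 3 and 4 (10.83 and 10.48). The part of macrophages in the Itgb2, Selp and Itgam values was not tested.

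**Figure D5:**
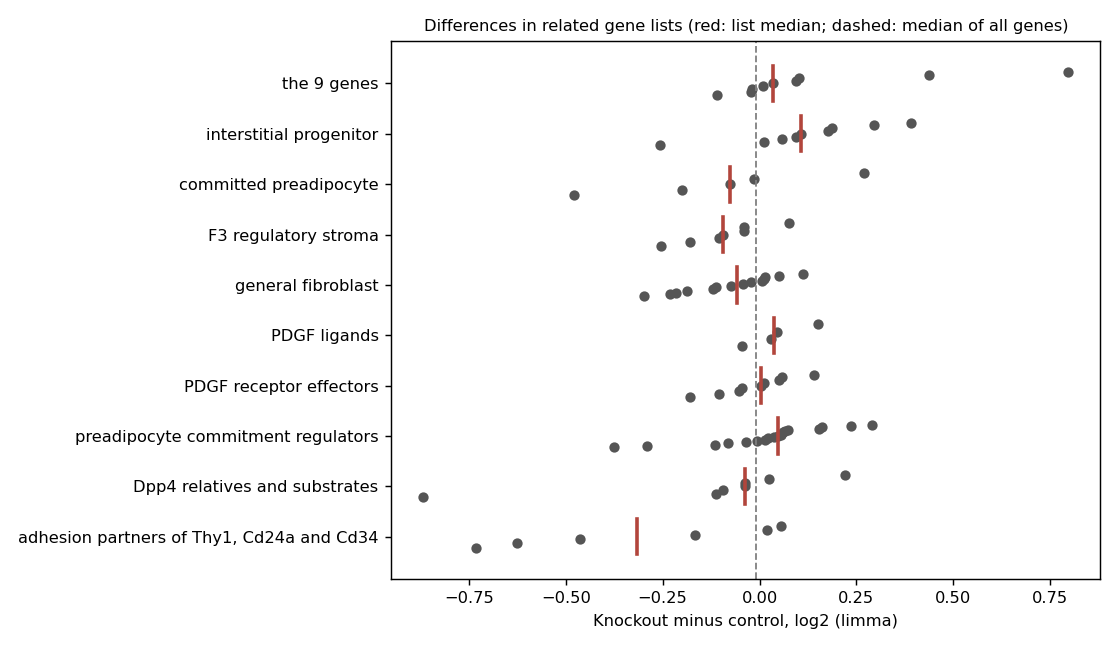
Difference between knockout and control on the log2 scale for each gene (points) of the 9 genes and of 9 related lists, with each list's median in red and the median of all genes as a dashed line. The medians lie between -0.32 for the adhesion partners and 0.11 for the interstitial progenitor list.

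By the rule for likeness, 4391 genes with a mean and an SD above the median were ranked by r with each of the 9 genes over the 8 arrays, as a description. The closest to Cd24a were Slc12a2 (r = 0.995) and Ccdc39 (0.992), and those to Cd34 were Cdc23 (0.989) and Peak1 (0.981). Pdgfra was followed by Plcg2 (0.976) and Arhgef25 (0.968), and Pdgfrb by Lbr (0.963) and S1pr2 (0.957). The closest to Dpt were Stc2 (0.959) and Nkain1 (0.908), to Zfp423 Cdkn1a (0.934) and Cep43 (0.916), and to Pi16 Sh3pxd2a and Sult5a1 (0.919 each). Thy1 was followed by Hspa12b (0.919) and Ctla2b (0.913), and Dpp4 had the weakest neighbours, Commd9 (0.869) and Ppox (0.843). These are the highest r among this many genes on only 8 arrays. Whether any of them goes beyond what such a search gives was not tested.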

How the data were processed

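The deposited table holds log2 values of 45101 probe sets on 8 arrays. The submitters' processing notes name RMA and give no version. RMA subtracts background, brings the arrays to a common distribution and joins a set's probes into 1 value, which can compress dim values. There are no detection calls. Without 64 control probe sets, 45037 remained for testing. GEO's platform annotation of 2016 gave 1 symbol to 34945 of them, several to 932 and none to 9160. The RefSeq table of GRCm38.p6 listed 34741 of the first and changed 0 symbols.

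Each gene was its probe set with the highest mean, 18193 genes in all. Knockout was compared with control by limma 3.58.1 in R 4.3.3 (lmFit, eBayes, no covariate), with Benjamini-Hochberg adjustment over all genes, a threshold of 0.05 and intervals of 95%. The number of arrays, 4 in each group, limits the precision: the median half-width of the interval over all genes was 0.25. Correlations over arrays have two-sided exact permutation p-values. The fit was checked on simulated data with known changes. No 2 arrays were identical. The genes and lists were chosen with earlier results of these data known. Named were the 9 genes, up to 3 genes of each related list with the smallest unadjusted p and the 2 genes most alike to each of the 9. Alternatives were a variance trend, a filter on dim genes, other normalizations, the mean of probe sets, array weights, the array set, an RNA quality covariate and leaving out each array. Some genes of the marker and related lists were not analysed here. Figures were drawn with matplotlib 3.10.9.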

Additional observations from a re-analysis of the deposited data

Results flagged for a closer look

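A value was picked out where the highest or lowest array of a group lay far from its nearest neighbour for the group's range (Dixon's test), which chance gives in about 1 in 20 groups; 10 were found among 132 groups looked at. Among the 9 genes, Dpp4 (1416697_at) in knockout 6 was low at 9.02, against 9.35 to 9.40 in the other knockouts. Pi16 (1453839_a_at) in control 4 was high at 8.94, against 8.28 to 8.36 in the other controls. Among related genes, Pdgfc was high in knockout 9 at 10.25 (other knockouts 10.08 to 10.11) and in control 3 at 10.32 (other controls 10.00 to 10.03). Abcg1 was high in control 3 at 9.79 (other controls 9.41 to 9.46), and Npy in control 1 at 9.54 (other controls 6.08 to 6.23). Of the marker scores, which are mean deviations on the log2 scale, endothelium was low in knockout 8 at -0.19 (other knockouts 0.04 to 0.06) and macrophages in knockout 6 at -0.53 (other knockouts 0.00 to 0.06). Adipocyte markers were high in knockout 6 at 0.18 (other knockouts -0.04 to -0.01), and neutrophil markers in control 4 at 3.21 (other controls -0.76 to -0.16).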

How the results depend on the processing

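No paired analysis was possible because the groups share no replicate numbers. The count of the 9 genes past the threshold was 0 under every alternative run, and so was the count of all genes, apart from 466 genes at an unadjusted p under 0.05. Of 162 refitted differences of the 9 genes, 139 kept their sign and 23 did not, none past the threshold (smallest adjusted p 0.552). Cd34 was 0.053 with array weights and 0.13 within the set of knockouts 6 and 8 and controls 1 and 2, where Dpp4 was -0.075, Pdgfrb 0.16 and Thy1 0.11. Dpp4 was -0.018 with array medians subtracted, and Pdgfra -0.010 with probe sets averaged and -0.069 within the other set. Leaving out 1 array gave ranges of 0.25 to 0.73 for Pi16, -0.071 to 0.10 for Dpp4, -0.18 to 0.15 for Cd34, -0.12 to 0.21 for Pdgfra, -0.29 to 0.087 for Pdgfrb, 0.045 to 0.17 for Zfp423, 0.40 to 1.20 for Cd24a, 0.023 to 0.15 for Dpt and -0.081 to 0.015 for Thy1. The median of the PDGF receptor effectors was -0.037 with probe sets averaged, -0.047 within the set that holds controls 1 and 2, 0.047 within the one that holds controls 3 and 4, and -0.060 to 0.013 when 1 array was left out. The cause of these moves was not tested.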
